A study of Mus musculus with 8 samples.

Results

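The TGF-beta ligand, receptor and Smad genes measured here are 10 genes, Tgfb1, Tgfbr1, Tgfbr2, Tgfbr3, Smad1, Smad2, Smad3, Smad4, Smad5 and Smad7, out of 20207 genes in the files. They were matched by symbol, and all 10 were found in each of 8 RNA-sequencing libraries and were among the 12561 genes tested. The series compared stem and progenitor cells sorted from the bone marrow of normal mice and of mice with a chronic myeloid leukaemia (CML)-like disease. Long-term (LT) stem cells gave 2 normal libraries (LT-HSC) and 2 CML libraries (LT-CML), and each of the other populations gave 1 library: short-term stem cells (ST-HSC and ST-CML) and KLS- progenitors (normal KLS- and CML-KLS-).

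LT-HSC replicate 1, ST-HSC and normal KLS- came from animals labelled 2 months old, and LT-HSC replicate 2 from animals labelled 6 months old. The labels gave no age for the CML animals. For cell sorting, the study's methods gave a single range in weeks for CML and normal animals alike, which does not reach 6 months. For metabolite measurements the study also used normal C57BL/6 mice of a younger and an older age. Whether such mice gave any of these libraries is not stated. The labels named the strain as C57BL/6 for all 8 libraries. The study's methods instead described FVB/N mice that carried Tal1-tTA, a transactivator driven from the stem-cell gene Tal1, together with TRE-BCR-ABL1, and in which the BCR-ABL1 oncogene was switched on by withdrawal of doxycycline. In those methods normal cells came from littermates that carried Tal1-tTA alone, and so with the transactivator too. Whether this holds for the normal libraries here is unknown, since the labels name another strain. By those methods LT cells were sorted as CD150+CD48-CD135- KLS+, ST cells as CD150-CD48-CD135- KLS+, and KLS- cells as c-Kit+ Lineage- Sca-1- cells. Nothing stated that replicate libraries came from separate animals or pools, so the p-values below measure only the spread between these libraries.

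TGF-beta is secreted in a latent form, and once released it is bound by the type II receptor, which phosphorylates the type I receptor. The type I receptor then phosphorylates the receptor-regulated Smads, which join Smad4 and enter the nucleus to regulate transcription. TGF-beta is known in bone marrow as a signal that holds haematopoietic stem cells in quiescence, and bone morphogenetic proteins (BMPs) use related receptors with a separate group of Smads.

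Expression was given as RPKM, reads scaled by gene length and by the mapped reads of the library, which is a level per length. Ranks and ratios between genes assume even coverage along each gene, which the priming and amplification described below may not give. Depth was estimated from the steps of low values at 17.7 to 23.6 M reads a library. At that depth the members were covered by an estimated 22 to 3485 reads, and Tgfb1 and Smad7 were the least covered, with lowest estimates of 22 and 33 reads. Differences below are of log2(RPKM + 1), which understates the change of genes near or under 1 RPKM, and a gene is called where limma's adjusted p over all tested genes is under 0.05. Replicates differed by at least 1 on this scale at 1.54% of the tested genes for LT-HSC and at 1.37% for LT-CML. Slamf1, which encodes CD150, was between 10.7 and 35.5 RPKM in the LT libraries and at most 2.87 RPKM in the others. Flt3, which encodes CD135, was highest in the ST libraries, at 61.6 and 71.6 RPKM, although CD135+ cells were gated out. Cd48 was at 41.79 and 45.15 RPKM in the ST libraries and from 5.17 to 29.5 RPKM in the LT libraries, although CD48+ cells were gated out of both. Of the other LT-HSC markers listed, Vwf was higher in every LT library than in the ST libraries. Procr and Mecom overlapped between LT and ST, and Hlf was higher in both ST libraries than in any LT library. These are bulk libraries, in which fewer cells of a type and less RNA per cell cannot be told apart.

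Tgfbr3 was the member that varied most, by 20.8 times from its lowest to its highest library, and it ranked first among the 10 members in both LT-CML libraries. Smad2 ranked first in the other 6 libraries and varied least, by 1.35 times. Tgfb1 was last in 7 libraries, and Smad7 was last in normal KLS-. Of the 10 members, 8 were called higher in stem cells than in KLS- progenitors, beside 26.5% of all tested genes. Tgfbr3 alone was called between LT and ST cells, where 4.87% of all genes were called, and between LT-CML and LT-HSC, where 1.73% were.

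**Figure D1:**
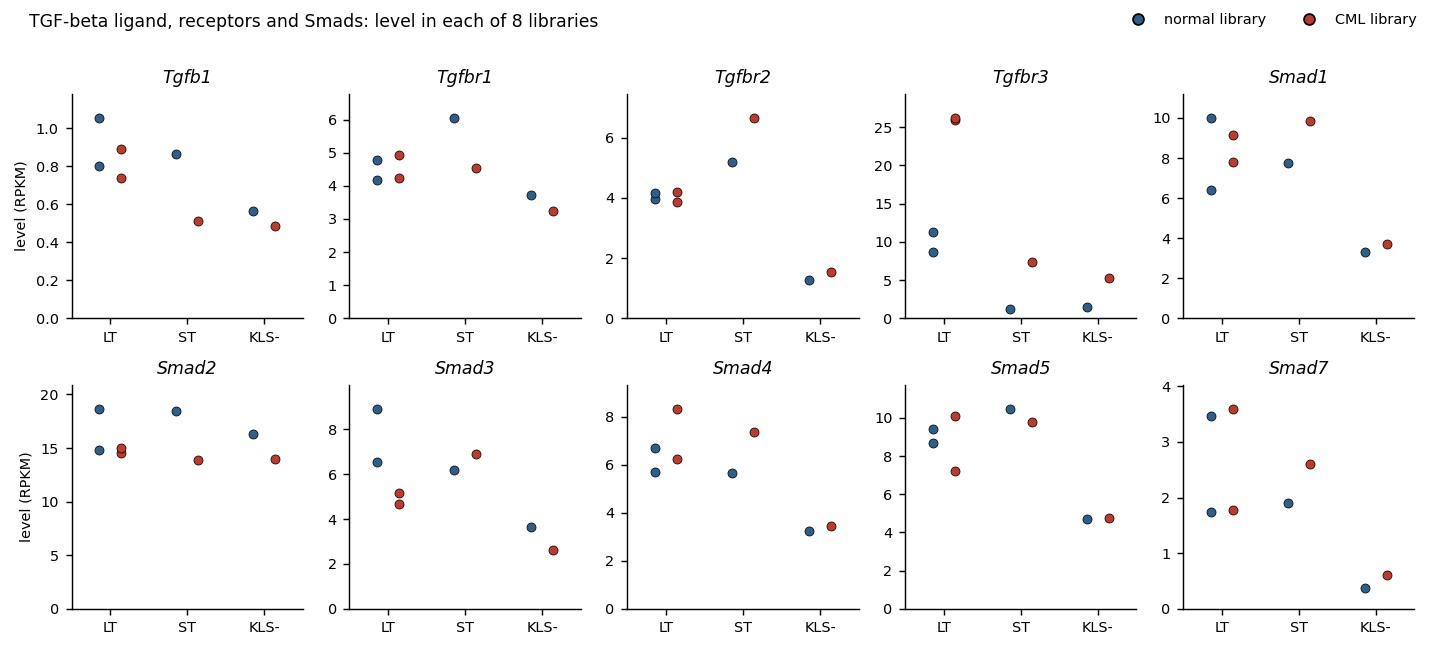
Level of each member in each of 8 libraries, in RPKM on linear axes that start at 0 (1 point per library; blue, normal; red, CML). The LT-CML libraries stand at 25.9 and 26.2 RPKM for Tgfbr3, and the KLS- libraries are the lowest points for Tgfbr2, Smad1, Smad3, Smad4, Smad5 and Smad7.

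Tgfb1 encodes the ligand TGF-beta1 and lies at chr7:26472021-26490096 on the plus strand (mm9, GENCODE M1). Its levels were 1.05 and 0.800 RPKM in LT-HSC, 0.864 in ST-HSC, 0.566 in normal KLS-, 0.738 and 0.892 in LT-CML, 0.513 in ST-CML and 0.483 in CML-KLS-. The LT-HSC and LT-CML values overlapped, and the ST-CML value lay below that of normal KLS-. It was not called in any comparison. The counting error alone was 21.4% at its lowest level.

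Tgfbr1, the type I receptor (chr4:47366094-47427803, plus strand), lay in a narrow range from 3.25 RPKM in CML-KLS- to 6.05 RPKM in ST-HSC. The LT-HSC mean was 4.47 ± 0.425 RPKM and the LT-CML mean 4.59 ± 0.494 RPKM (SD, n = 2 each), and their values overlapped.

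Tgfbr2, the type II receptor that binds the ligand first (chr9:115993415-116084383, minus strand), was at 3.97 and 4.18 RPKM in LT-HSC, 5.18 in ST-HSC, 1.27 in normal KLS-, 4.20 and 3.86 in LT-CML, 6.65 in ST-CML and 1.54 in CML-KLS-. Each stem library was more than 2 times above each KLS- library, and the ST libraries were the highest of both kinds of mice. LT-HSC and LT-CML interleaved.

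Tgfbr3, also called betaglycan, is a co-receptor without kinase activity that presents the ligand to the type II receptor (chr5:107535589-107718648, minus strand). It was at 8.68 and 11.3 RPKM in LT-HSC, 1.26 in ST-HSC, 1.52 in normal KLS-, 25.9 and 26.2 in LT-CML, 7.32 in ST-CML and 5.29 in CML-KLS-. In each population the CML level was above the normal level, and in each kind of mouse the LT level was above the ST and KLS- levels. The order from the highest was LT-CML, LT-HSC, ST-CML, CML-KLS-, normal KLS- and ST-HSC, and the last 2 differed by 0.16 on the log2 scale, less than the 0.34 between the LT-HSC replicates.

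Smad2 and Smad3 transmit TGF-beta and activin signals. Smad2 was the most even member, between 13.8 and 18.7 RPKM in all 8 libraries. Its levels were 18.7 and 14.8 RPKM in LT-HSC, 18.5 in ST-HSC, 16.3 in normal KLS-, 14.6 and 15.0 in LT-CML, 13.8 in ST-CML and 13.9 in CML-KLS-. Smad3 (chr9:63494574-63605801, minus strand) was at 6.55 and 8.93 RPKM in LT-HSC, 6.20 in ST-HSC, 3.67 in normal KLS-, 5.15 and 4.68 in LT-CML, 6.91 in ST-CML and 2.64 in CML-KLS-. Both LT-CML values of Smad3 lay below both LT-HSC values, whereas the ST-CML value lay above ST-HSC, and both KLS- libraries were lowest.

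Smad1 (chr8:81862294-81923417, minus strand) and Smad5 (chr13:56804371-56843738, plus strand) transmit BMP signals. Smad1 was between 6.42 and 9.996 RPKM over the 6 stem libraries, against 3.32 in normal KLS- and 3.72 in CML-KLS-. Smad5 was between 7.21 and 10.5 RPKM in stem libraries, against 4.71 in normal KLS- and 4.77 in CML-KLS-. Smad4, the partner that both branches share, was between 5.67 and 8.34 RPKM in stem libraries, against 3.24 and 3.46 RPKM in the normal and CML KLS- libraries. For these 3 genes the normal and CML values overlapped within stem cells.

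Smad7 is an inhibitory Smad that blocks the type I receptor and is itself induced by TGF-beta. It was at 1.74 and 3.47 RPKM in LT-HSC, 1.91 in ST-HSC, 0.367 in normal KLS-, 1.77 and 3.60 in LT-CML, 2.60 in ST-CML and 0.607 in CML-KLS-. The LT replicates of each kind of mouse differed by about as much as each other, 0.71 on the log2 scale in LT-HSC and 0.73 in LT-CML, so that its LT levels spanned the ST level. The same LT libraries also differed in their neutrophil transcripts: the summed level of 8 neutrophil markers (of 9 listed) was 4040 RPKM in LT-HSC replicate 2 and 2711 in LT-CML replicate 2, against 576 in LT-HSC replicate 1 and 319 in LT-CML replicate 1. The markers were all above 1 RPKM in the first 3 of these libraries, and Mpo was at 1291 RPKM in LT-CML replicate 2. That sum was highest in the KLS- libraries (9490 and 15562 RPKM), where Smad7 was lowest, and Mpo made up most of it there (7891 and 13120 RPKM). Of the 8 markers, Prtn3 and Ctsg were also highest in KLS-. S100a8, S100a9, Ltf, Camp and Ngp were instead highest in LT-HSC replicate 2. Ngp was at 688 RPKM there, against 7.06 and 20.9 in normal and CML KLS-. The part of these transcripts in the Smad7 values was not tested.

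The genes with the pattern most like that of Smad3 were Tob1, Dmwd, Il7, Timp2 and Fmnl2, with Pearson's r on the log2 scale from 0.970 to 0.984 over the 8 libraries. They were taken from the 2420 genes with a mean of at least 1 RPKM and an SD of at least 0.5, of which 139 had r above 0.9. For Tgfbr3 only 13 genes had r above 0.9, and the 5 most alike were Ehd3, Itgb3, B9d1, Nupr1 and Darc, from 0.945 to 0.974. Itgb3, the beta3 integrin of platelets and stem cells, was at 4.68 and 5.62 RPKM in LT-HSC and at 18.2 and 18.7 in LT-CML. The points share libraries and depth and fall into few populations, so these values are a description.

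The first comparison asked which members differ between LT cells of CML and of normal mice. Tgfbr3 rose from 9.97 ± 1.82 RPKM in LT-HSC to 26.1 ± 0.191 RPKM in LT-CML (SD, n = 2 each), which is 2.61 times. The log2 difference was 1.31 with a standard error of 0.21 (adjusted p = 0.0285, limma), and the groups did not overlap. It was the only one of the 10 members called, in a comparison in which 0.939% of all tested genes were called higher and 1.73% in either direction. The call was lost on leaving out any of the LT libraries, with adjusted p of 0.113 and 0.0868 without LT-HSC replicates 1 and 2 and 0.275 and 0.279 without LT-CML replicates 1 and 2, while the difference stayed between 1.14 and 1.48. It was also lost under quantile normalization (adjusted p = 0.0524) and with no minimum on RPKM (adjusted p = 0.264). The LT-HSC replicates were labelled 2 and 6 months old, so their spread includes any difference with age. The LT-CML ages were not labelled, so age could not be matched in this comparison.

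Smad3 was lower in LT-CML, at 4.92 ± 0.332 RPKM against 7.74 ± 1.68 RPKM in LT-HSC (SD, n = 2 each), or 1.57 times. Its log2 difference of -0.55 had a standard error of 0.22 and was not called (adjusted p = 0.390, limma), although the groups did not overlap. Tgfbr3 and Smad3 were the 2 of 10 members without overlap here, beside 40.5% of all tested genes. The log2 differences of the other 8 members lay between -0.16 for Smad2 and 0.19 for Smad4, and their adjusted p were at least 0.830. Over the 10 members the median was 0.0087, beside -0.015 over all genes tested.

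**Figure D2:**
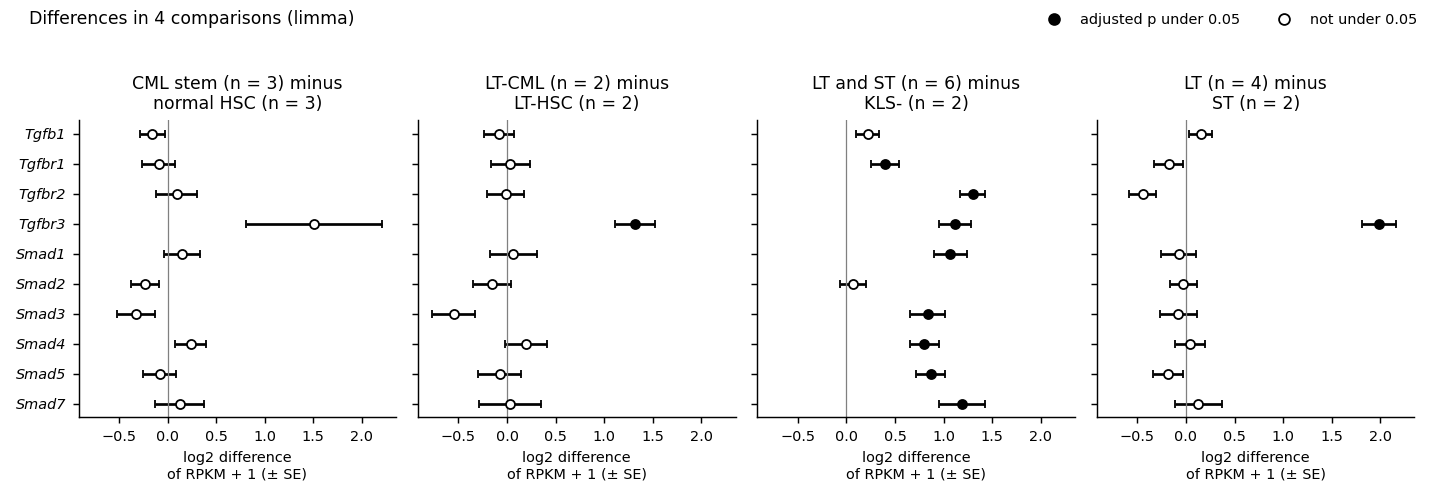
Difference of log2(RPKM + 1) for each member in 4 comparisons, with its standard error (limma; n is the number of libraries on each side; filled points have an adjusted p under 0.05). Tgfbr3 is filled in all panels but the pooled one, where its difference of 1.50 has a standard error of 0.70.

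In ST cells and in KLS- progenitors there was 1 library on each side, so that differences had no replicate check. Tgfbr3 was 5.83 times higher in ST-CML than in ST-HSC (a log2 difference of 1.88), and 3.48 times higher in CML-KLS- than in normal KLS- (1.32). It was the only member that differed by at least 1 on the log2 scale in either pair, as 4.04% of all tested genes did between the ST libraries and 3.24% between the KLS- libraries. Its disease difference in LT cells and that in KLS- cells were 0.0074 apart, with a standard error of 0.36. The other pairs were further apart: LT minus ST was -0.57 (standard error 0.36), and ST minus KLS- was 0.56 (standard error 0.41). Smad3 was higher in ST-CML than in ST-HSC by 0.13 and lower in CML-KLS- than in normal KLS- by 0.36. Over 10 members and 3 pairs of populations, 30 differences of disease differences were tested in limma, and none had an unadjusted p under 0.05. The lowest was 0.110, for Smad3 between LT and ST cells, and the lowest adjusted p was 0.9995.

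The study's own pooling set the 3 CML stem libraries against the 3 normal HSC libraries. In that comparison Tgfbr3 was between 7.32 and 26.2 RPKM, with a median of 25.9, in CML stem cells and between 1.26 and 11.3 RPKM, with a median of 8.68, in normal HSCs. These ranges overlapped, with LT above ST in both, and the log2 difference of 1.50 had a standard error of 0.70 (adjusted p = 0.444, limma). With LT or ST as a covariate the standard error was 0.17 and the adjusted p 0.00277. In the disease term over all 8 libraries, a fit added after the data were seen, the difference was 1.46 with a standard error of 0.14 (adjusted p = 0.000642). Without a covariate limma called 0 of the 10 members, and 0 had an unadjusted p under 0.05, against 2.34% of all tested genes called. Smad3 had a log2 difference of -0.32 (standard error 0.20, adjusted p = 0.579), and the remaining 8 lay between -0.23 and 0.24.

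The next comparison set the 6 LT and ST libraries against the 2 KLS- libraries, with disease as a covariate. Of the 10 members 8 were called higher in stem cells and 0 lower, where 26.5% of all tested genes were called higher. For 7 members every stem library was above both KLS- libraries, as did 27.7% of all genes. The median difference of the members was 0.85 and that of all genes 0.078. Summed RPKM was higher in the KLS- libraries (444650 and 465695) than in the stem libraries (324114 to 372849). With equal sums the median of all genes rose by 0.20 to 0.28, and 76.8% of called genes were higher in stem cells, beside 54.4% of 6123 as deposited. The KLS- libraries also held more transcripts of committed cells: the 6 erythroid markers summed to 826 and 1814 RPKM in them and to at most 96.7 RPKM in stem libraries, and the 8 neutrophil markers to 9490 and 15562 RPKM against 246 to 4040. Their part in the members' differences was not tested.

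The type II receptor Tgfbr2 differed with the smallest adjusted p among the members. Its mean was 4.67 ± 1.08 RPKM in stem cells (SD, n = 6) and 1.40 RPKM in KLS- cells (n = 2), or 3.33 times higher, with a log2 difference of 1.30 (standard error 0.13, adjusted p = 0.000147, limma). Smad7, the inhibitory Smad, had the widest ratio, 5.16 times, with a log2 difference of 1.19 (standard error 0.24, adjusted p = 0.00336). Tgfbr3 was called at 1.12 (adjusted p = 0.000886), although its groups overlapped, since ST-HSC lay below both KLS- libraries.

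The BMP-regulated Smad1 differed by 1.07 (adjusted p = 0.00127, limma) and Smad5 by 0.86 (adjusted p = 0.00168). Smad3 differed by 0.83 (standard error 0.18, adjusted p = 0.00542), with a mean of 6.40 ± 1.50 RPKM in stem cells (SD, n = 6) and 3.15 RPKM in KLS- cells. Smad4 differed by 0.80 (adjusted p = 0.00252), and Tgfbr1 by 0.39 with an adjusted p of 0.0481. The Smad3 call was lost without CML-KLS- (adjusted p = 0.0624), and the Tgfbr1 call was lost under quantile normalization (adjusted p = 0.290), with no minimum on RPKM (0.0782) and on leaving out any library but LT-HSC replicate 2 (0.0546 to 0.251).

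Tgfb1 and Smad2 were the 2 members not called. Tgfb1 differed by 0.22 (standard error 0.11, adjusted p = 0.146, limma) and Smad2 by 0.068 (standard error 0.13, adjusted p = 0.694). Both depended on scaling. With equal summed RPKM both were called higher in stem cells, Tgfb1 at 0.34 (adjusted p = 0.0408) and Smad2 at 0.39 (adjusted p = 0.0367), and under quantile normalization Tgfb1 turned to -0.091 (adjusted p = 0.577).

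The balance between members within a library also differed between populations. The Smad2 to Smad3 ratio of RPKM was between 1.65 and 3.21 in the 6 stem libraries, and 4.44 and 5.29 in the normal and CML KLS- libraries. The Tgfbr1 to Tgfbr2 ratio was between 0.683 and 1.28 in stem libraries, and 2.93 and 2.11 in KLS-. The Tgfbr3 to Tgfbr2 ratio was 2.19 and 2.70 in LT-HSC and 6.17 and 6.79 in LT-CML, 0.243 in ST-HSC, 1.10 in ST-CML, 1.20 in normal KLS- and 3.44 in CML-KLS-. For this last ratio CML-KLS- lay above both LT-HSC libraries. These ratios were not tested.

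**Figure D3:**
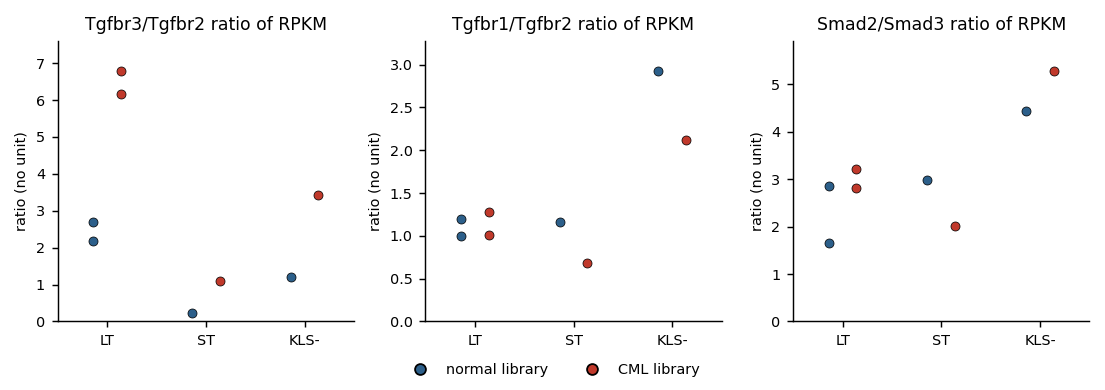
Ratio of RPKM between pairs of members in each of 8 libraries (linear axes from 0; 1 point per library; blue, normal; red, CML). Both KLS- libraries lie above all stem libraries for Smad2/Smad3 and Tgfbr1/Tgfbr2, and both LT-CML libraries lie above the rest for Tgfbr3/Tgfbr2.

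Between LT and ST cells, again with disease as a covariate, Tgfbr3 was the only member called. It was 7.93 times higher in LT-HSC than in ST-HSC and 3.56 times higher in LT-CML than in ST-CML, and all 4 LT libraries were above both ST libraries. The log2 difference was 1.99 with a standard error of 0.17 (adjusted p = 0.00109, limma), in a comparison in which 2.74% of tested genes were called higher and 4.87% in either direction. The call held under the 15 alternatives run, with adjusted p from 0.000689 to 0.0198. Megakaryocyte and platelet markers also separated these populations: the summed level of the 5 listed genes was 270 to 455 RPKM in the LT libraries, 32.8 and 43.5 in the ST libraries and 54.9 to 87.5 in the KLS- libraries. Pf4 made up most of it in the LT libraries, Gp1bb was at most 1.33 RPKM, and the sums in LT-HSC (390 and 407) lay between those in LT-CML (455 and 270). The 5 genes split between LT-CML and LT-HSC. Itga2b (51.0 and 38.4 against 26.7 and 15.1 RPKM) and Gp1bb were higher in both LT-CML libraries, Ppbp was lower in both, and Pf4 and Gp9 overlapped. The part of these markers in the Tgfbr3 differences was not tested. The 6 endothelial and stromal markers summed to between 4.12 and 7.49 RPKM over the 8 libraries, with Lepr the highest of them in each, and Cdh5 was at most 0.028 RPKM.

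Tgfbr2 went the other way, with both ST libraries above all 4 LT libraries, but its log2 difference of -0.45 (standard error 0.14) was not called (adjusted p = 0.117, limma). The differences of the other 8 members lay between -0.18 and 0.15.

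The 250 bases before the annotated start of Tgfbr2 and of Smad3 are shown because both genes were lower in KLS- cells and are direct parts of the receptor to Smad relay. They are from RefSeq on GRCm38.p6, another build than that of the expression files, at chr9:116175364-116175613 for Tgfbr2 and chr9:63757995-63758244 for Smad3, both on the minus strand and written 5′ to 3′. Capitals mark CAGAC, the short core that Smads are known to bind, searched on both strands.

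Tgfbr2: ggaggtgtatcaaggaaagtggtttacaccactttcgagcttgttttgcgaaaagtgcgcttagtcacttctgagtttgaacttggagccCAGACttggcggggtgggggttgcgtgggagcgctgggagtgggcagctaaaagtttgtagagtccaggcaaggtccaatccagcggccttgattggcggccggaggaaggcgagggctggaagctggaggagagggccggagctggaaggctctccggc

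Smad3: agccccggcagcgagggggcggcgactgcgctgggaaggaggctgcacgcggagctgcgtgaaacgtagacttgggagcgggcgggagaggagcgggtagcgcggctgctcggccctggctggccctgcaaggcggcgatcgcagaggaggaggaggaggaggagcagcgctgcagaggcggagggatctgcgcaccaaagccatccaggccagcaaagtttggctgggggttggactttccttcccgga

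The Tgfbr2 stretch held 1 such core, which begins 160 bases before the start, and the Smad3 stretch held 0. Of the members, 6 had a promoter of 300 bases in the table, and 3 of these, Smad5, Tgfbr1 and Tgfbr2, held it on either strand, beside 49.6% of all 32851 promoters. The palindrome GTCTAGAC was in 0.213% of promoters and in 0 of the 6. The site of GATA transcription factors, AGATAA, was in 11.2% of all promoters and in 1 of the 6, Smad5. By promoter, 3 of the 9 listed for these 6 genes held CAGAC and 1 held AGATAA.

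The study addressed phosphorylation of Smad3 at a linker serine, which RNA levels do not report. The coding sequence around that codon is shown to place it. The codon, in capitals, lies at chr9:63511506-63511508 (mm9, minus strand) in exon 5 of 9, and the 63 bases start in exon 4.

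Smad3 coding sequence: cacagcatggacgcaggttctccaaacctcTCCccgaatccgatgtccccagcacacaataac

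The wider pathway was read from a list of 72 further gene symbols, of which 71 were in the files and 51 were tested. The absent symbol, Nrros, is another name of Lrrc33, which is also in the list and was tested. In stem cells against KLS- progenitors 29 were called higher and 3 lower, where 26.5% of all tested genes were called higher and 22.2% lower, and their median log2 difference was 0.46 beside 0.078 over all genes. By role, 6 of 8 receptors and co-receptors were called higher, 3 of 5 ligands, 5 of 8 latency and activation genes, 8 of 18 co-factors and regulators and 7 of 11 targets, while Smad6 was not called.

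Among receptors, the co-receptor endoglin (Eng) was between 4.66 and 10.2 RPKM in stem libraries and at 2.55 and 2.49 in normal and CML KLS-, a log2 difference of 1.30 (adjusted p = 0.000709, limma). The BMP type II receptor Bmpr2 differed by 0.91 (adjusted p = 0.000880) and the activin type II receptor Acvr2a by 0.84 (adjusted p = 0.00112). Acvr1 (0.65) and Acvr1b (0.46) were also called. Ltbp3, which holds TGF-beta in its latent complex, differed by 0.89 (adjusted p = 0.00111). Tgfb3, a further ligand, was under 0.7 RPKM in all libraries and differed by 0.47 (adjusted p = 0.0127). Inha, an inhibin subunit, was at most 0.825 RPKM and differed by 0.65 (adjusted p = 0.00250). Furin, the protease that cleaves the TGF-beta precursor, differed by 0.51 (adjusted p = 0.0169).

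The 2 largest differences were those of a regulator and a target, Skil and Bhlhe40. Skil, a repressor of Smad complexes, was between 9.19 and 44.4 RPKM in stem libraries and at 1.62 and 1.51 in KLS-, a log2 difference of 2.96 (adjusted p = 0.000110, limma). Bhlhe40 differed by 2.26, Junb by 1.90, and Foxo1 by 1.35. Foxo3, a transcription factor that the study examined with Smad3, was called higher although no library exceeded 0.718 RPKM. Ski, a repressor related to Skil, differed by 0.94, the co-repressor Tgif2 by 0.67 and the ubiquitin ligase Smurf2 by 0.51 (adjusted p of 0.00464, 0.00589 and 0.0162). The target Tgfbi differed by 1.01 (adjusted p = 0.0144). Id3, a BMP target, differed by 2.04 (adjusted p = 0.0137), while its LT-CML replicates were at 1.57 and 13.7 RPKM. The cell cycle inhibitor Cdkn1c was listed at 0 in both KLS- libraries and between 1.82 and 8.99 RPKM in stem libraries. Lower in stem cells were Myc (-0.64, adjusted p = 0.0136), the adaptor Dab2 (-0.51, adjusted p = 0.00204) and Lrrc33, which anchors latent TGF-beta (-0.51, adjusted p = 0.0246). Dab2 was at most 0.562 RPKM in any library. Lrrc33 falls outside the naming rule and was named after its values were seen.

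**Figure D4:**
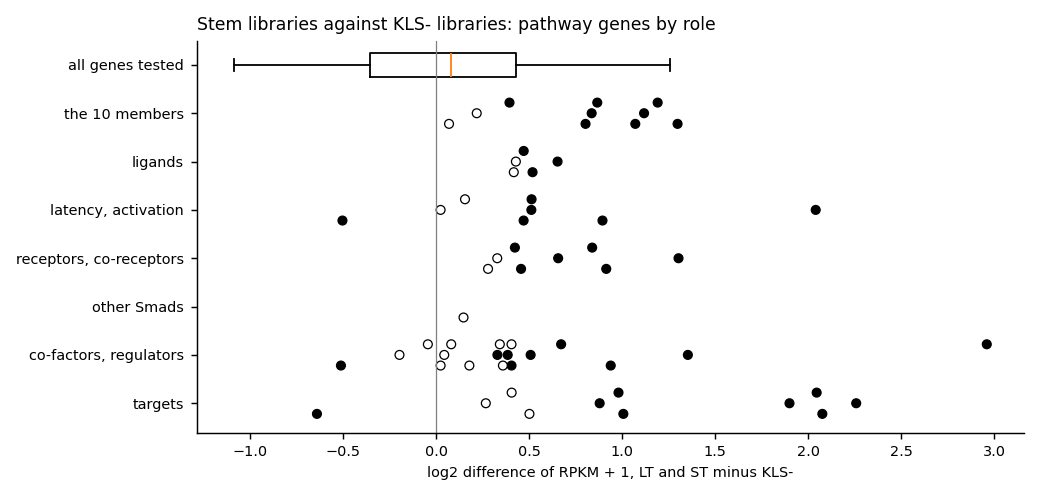
Difference of log2(RPKM + 1), LT and ST minus KLS-, for the members and for further pathway genes by role (1 point per gene, spread vertically for sight only; filled, limma adjusted p under 0.05). The box at the top gives the median and quartiles of all 12561 genes tested, with whiskers at the 5th and 95th percentiles; the members' median is 0.85 and that of all genes 0.078.

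Between CML and normal cells 1 of these 51 genes was called in each comparison, where 2.34% of all tested genes were called in the pooled comparison and 1.73% between LT-CML and LT-HSC. Cdkn1b, which encodes the cell cycle inhibitor p27, was the one called in the pooled comparison. It was between 5.94 and 7.47 RPKM in CML stem cells and between 14.6 and 16.0 RPKM in normal HSCs, a log2 difference of -1.03 (standard error 0.14, adjusted p = 0.0121, limma). Between LT-CML and LT-HSC the call was Inhba, a subunit of activin A, at 0.411 and 0.395 RPKM in LT-CML and 1.34 and 1.67 in LT-HSC (-0.83, adjusted p = 0.0360), which was named after its values were seen. Between LT and ST cells Itgb6, part of an integrin that activates latent TGF-beta, was called higher in LT (0.82, adjusted p = 0.00469), at levels of at most 1.18 RPKM. The co-repressor Tgif1 was called lower in LT (-1.16, adjusted p = 0.00592). These were 2 of 51, beside 4.87% of all tested genes.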

How the data were processed

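Per the study's methods, the authors lysed sorted cells directly, made cDNA from total RNA with an oligo-dT primed low-input kit (SMARTer), read both ends of each fragment over 100 bases on a HiSeq2000, and mapped the reads to mm9 with SeqNova CS. They deposited 1 RPKM value per gene and library. The annotation, the counting rule and the treatment of reads with several matches are not given in the sources used here. RPKM are not counts, so no count test was used. Priming and amplification of small inputs favour 3′ ends and make reads dependent, so counting errors here cover sampling only.

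Tests used log2(RPKM + 1) of the 12561 genes whose RPKM summed to more than 1 across libraries. Fits were made with limma (version 3.58.1, R 4.3.3; lmFit, then eBayes with trend), p-values were adjusted by Benjamini-Hochberg over all these genes, and the threshold was 0.05. The pooled fit held the 6 stem libraries and no covariate. LT-CML and LT-HSC were compared in a model of all 8 libraries in which each of the 6 populations had its own mean (2 residual degrees of freedom). Stem against KLS- and LT against ST used an additive model of disease and population with 4. The fits were also run on simulated data with planted changes of 2 on the log2 scale, which does not show how smaller differences are recovered. Depth was estimated from the common step of low RPKM values and GENCODE M1 exon lengths, for the 93.2% of gene names with 1 locus. Python 3.11.15 did the rest.

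The members and the pathway and marker lists were chosen with earlier results of these data known. The text names all 10 members, pathway genes called in at least 1 comparison (the 25 with the smallest adjusted p), and the 5 genes most like Smad3 and most like the member with the largest SD. Alternatives were another pseudocount, other minimums on RPKM, 3 other scalings, no variance trend, other covariates or samples, and each library left out. Equal-sum scaling and the disease term over all 8 libraries were added after seeing the data.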

Additional observations from a re-analysis of the deposited data

How the results depend on the processing

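Of the log2 differences of members recomputed under the alternatives, 518 kept their direction and side of the threshold, 16 lost a call, 4 gained one and 28 changed sign; those that changed sign were not called in the analysis as reported. The cause was not tested except where fewer libraries or other genes enter a fit. In the pooled comparison 294 genes were called, 193 with no minimum on RPKM, 543 with LT or ST as a covariate, 776 in the disease term over all 8 libraries and 115 to 217 with a library left out. The members called went from 0 to 1 with the covariate and to 1 over all 8 libraries, each time Tgfbr3. Between LT-CML and LT-HSC 217 genes were called, 0 with no minimum (limma; 1765 had an unadjusted p under 0.05) and 6 to 74 with a library left out, and the 1 member called became 0 with no minimum, 0 under quantile normalization and 0 to 0 with a library left out. Stem against KLS- gave 6123 genes, and 3178 to 6338 with a library left out, the low counts being those without CML-KLS- (3178) and without normal KLS- (3657). LT against ST gave 612 genes, 283 with no minimum and 110 to 718 with a library left out, with 110 without ST-CML, 126 without ST-HSC and 373 without LT-HSC replicate 1.

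Sign changes under another scaling were Tgfbr2 between LT-CML and LT-HSC (0.043 with equal sums), Tgfb1 in stem against KLS- (-0.091 under quantile normalization) and Smad2 in LT against ST (0.00070 under upper-quartile scaling, 0.0041 with equal sums). Leaving out a library in turn, the pooled difference ran from -0.19 to 0.029 for Tgfbr1, -0.11 to 0.22 for Tgfbr2, -0.16 to 0.058 for Smad5 and -0.058 to 0.34 for Smad7. Between LT-CML and LT-HSC it ran from -0.18 to 0.011 for Tgfb1, -0.058 to 0.12 for Tgfbr1, -0.062 to 0.037 for Tgfbr2, -0.22 to 0.35 for Smad1, -0.32 to 0.0026 for Smad2, -0.29 to 0.14 for Smad5 and -0.34 to 0.39 for Smad7. Between LT and ST it ran from -0.20 to 0.037 for Smad1, -0.13 to 0.082 for Smad2, -0.39 to 0.23 for Smad3, -0.042 to 0.13 for Smad4 and -0.037 to 0.30 for Smad7.

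No paired analysis was possible because the labels give the groups no shared replicate numbers. With 1 library for ST and KLS- cells of each kind of mouse, library and population cannot be told apart there. Where leaving out a library leaves a single one in a group, it is assumed to vary like the others.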
